A study of Mus musculus with 16 samples.

Results

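Regulators of the epididymis were examined across mouse sperm RNA libraries: the estrogen receptor gene Esr1, the steroid reductase genes Srd5a1 and Srd5a2, the receptor kinase gene Ros1, the ETS factor genes Etv4 and Etv5, the ERK phosphatase gene Dusp6 and the paired box factor gene Pax2. They were taken by name from the count table and are 8 of its 24062 genes, and all 8 were present. The libraries came from 8 males fed a high-fat diet (HFD) and 8 males fed a control diet (CD), and the series asks what the diet of the father does to sperm RNA and the early embryo. Feeding began when the males were 3 weeks old and ran for 9 weeks, after which motile sperm were isolated. The HFD was a modified D12492 feed, the CD its matched control, and neither a strain nor a genotype is named in the labels. The design text gives 8 mice for each diet, 1 library each, and 2 ng of RNA was amplified before sequencing without any stated molecular identifier, so amplified copies and separate molecules cannot be told apart.

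The epididymis is the coiled duct in which sperm leaving the testis mature and are stored. Its lining responds to androgen, which 5α-reductases convert into dihydrotestosterone, and to estrogen, which acts through the receptor encoded by Esr1 and governs fluid uptake in the efferent ducts. Its first part, the initial segment, also depends on factors that arrive from the testis with the luminal fluid, which is called lumicrine signalling. In mice NELL2, a protein made by testicular germ cells, acts on the orphan receptor tyrosine kinase ROS1 in the initial segment, and ERK activity there goes together with expression of the ETS factors ETV4 and ETV5 and of DUSP6, a phosphatase that switches ERK off. PAX2 is a transcription factor of the Wolffian duct, from which the epididymis forms, and of the kidney.

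For 7 of the 8 genes RefSeq (GRCm38.p6) gave at least 1 start site, with 11 windows of 250 bases upstream in all. Etv4 was the gene without a match. Windows of Ros1 and Dusp6 are shown because the receptor and its ERK readout lay far apart in RNA level in these libraries, as described further below. The Ros1 window lies at chr10:52195245-52195494 on the minus strand and the Dusp6 window at chr10:99262981-99263230 on the plus strand. Capitals mark the PEA3 core AGGAAG, a motif of the ETS factors ETV4 and ETV5, on either strand.
Ros1: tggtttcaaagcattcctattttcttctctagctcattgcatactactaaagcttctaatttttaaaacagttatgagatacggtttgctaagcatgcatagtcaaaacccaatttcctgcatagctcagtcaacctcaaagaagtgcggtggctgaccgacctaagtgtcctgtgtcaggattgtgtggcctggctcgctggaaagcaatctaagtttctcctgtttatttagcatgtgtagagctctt
Dusp6: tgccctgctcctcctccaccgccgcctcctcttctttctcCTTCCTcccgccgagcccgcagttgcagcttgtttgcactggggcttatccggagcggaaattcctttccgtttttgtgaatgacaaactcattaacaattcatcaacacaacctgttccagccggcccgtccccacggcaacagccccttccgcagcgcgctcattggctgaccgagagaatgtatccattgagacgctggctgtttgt
The Dusp6 match begins 210 bases before the start site. On both strands the PEA3 core was found in 2 of the 11 windows, those being 1 of Dusp6 and 1 of Esr1, against 29.5% of the 32851 mouse windows of this length. The androgen half-site AGAACA occurred in 0 of the 11 windows and in 16.1% of all windows. The palindromic estrogen response element, searched without mismatches, occurred in 0 of the 11 and in 0.0639% of all windows. A match is a run of letters in the window and no evidence of binding.

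Gene counts per library ran from 1882555 to 5153818 in HFD and from 3172721 to 7783981 in CD. Levels are CPM, a count scaled to a common library total, with library sizes adjusted by the trimmed mean of M-values (TMM). The tissue is labelled spermatozoa, and all 20 genes of a late spermatid list were present, but genes of the epididymal principal cell, the secretory cell of the duct lining, made up much more of the RNA. In 14 libraries 18 such genes summed to between 46290 and 108718 CPM, against 2399 to 13301 CPM for the spermatid list. Libraries HFD 4 and HFD 8 stood apart, with 18319 and 11336 CPM of the epididymal list and 25123 and 58273 CPM of the spermatid list. They also had the lowest shares of reads in genes, 8.02% and 9.16%. Log2 fold changes of the 7 regulators tested and the medians of the pathway lists are therefore given with and without them. In bulk RNA, fewer cells of a type and less RNA per cell cannot be told apart.

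The receptor Ros1 and the Wolffian factor Pax2 were well expressed. Dusp6 and Etv5 were low but had counts in 16 of 16 libraries, and Etv4 was near the lower limit of detection. Per kilobase of annotated exon, so that genes can be compared, the median over 16 libraries was 25.8 CPM per kb for Pax2, 23.7 for Ros1, 15.1 for Srd5a1, 11.6 for Srd5a2, 1.79 for Esr1, 1.70 for Dusp6, 1.14 for Etv5 and 0 for Etv4. Neighbours within the upper 4 changed places between libraries: the level of Ros1 exceeded that of Pax2 in 9 of 16 libraries, and the level of Srd5a1 exceeded that of Srd5a2 in 9 of 16. Srd5a2 exceeded Esr1, its next neighbour, in 16 of 16 libraries, with a ratio of 1.14 to 22.98. In CD 2 and HFD 7 Srd5a2, at 68.0 and 43.5 CPM per kb, was the highest of the 8 genes. The gap between the upper 4 genes and the lower ones did not hold in HFD 4 and HFD 8. In HFD 8 Dusp6, at 2.00 CPM per kb, exceeded Pax2 at 1.61, Ros1 at 1.39 and Srd5a2 at 0.434, and in HFD 4 Etv5, at 3.63, exceeded Pax2 at 3.41. Among the lower genes, Esr1 exceeded Dusp6 in 9 of 16 libraries and Dusp6 exceeded Etv5 in 10 of 16. Lengths are the union of annotated exons, which is 13.7 kb for Esr1 and 1.61 kb for Srd5a2, so a gene whose listed exons are used little is placed too low on this scale.

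**Figure D1:**
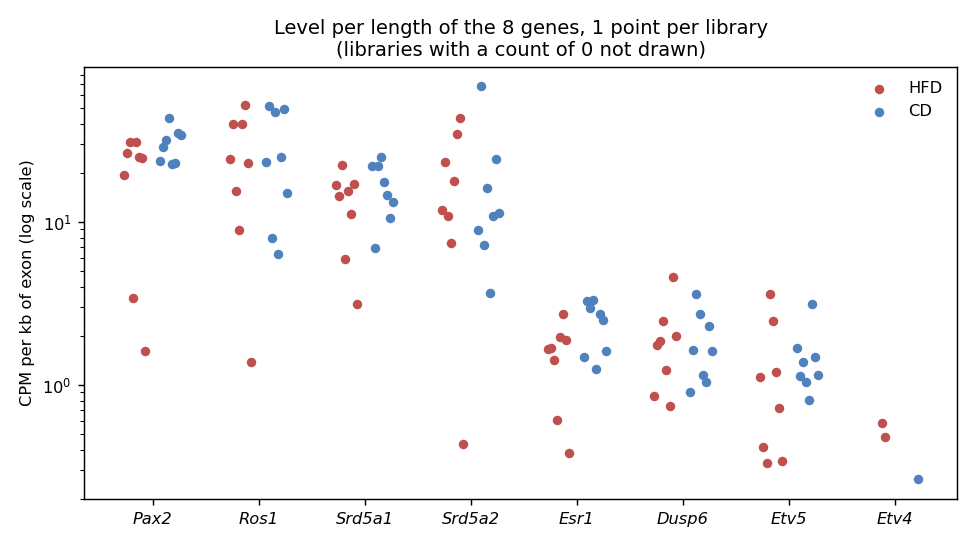
CPM per kb of exon, on a log axis, for the 8 genes in order of their median over 16 libraries, with 1 point per library (HFD left, CD right) and libraries at 0 not drawn. Pax2, Ros1, Srd5a1 and Srd5a2 have medians between 11.6 and 25.8, and the other genes have medians of at most 1.79.

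Ros1, the receptor of the lumicrine pathway (chromosome 10, 52045721 to 52195244 on GRCm38, minus strand), varied more between mice of one diet than between diets. It had a lowest level of 10.8, a median of 183 and a highest level of 407 CPM in HFD, against 49.3, 188 and 398 CPM in CD. In HFD the 2 lowest values were those of HFD 8 and HFD 4, at 10.8 and 69.0 CPM, and in CD the lowest were CD 5 at 49.3 and CD 3 at 61.8 CPM. The diets overlapped over most of their range. Means were 199 ± 135 CPM in HFD and 219 ± 145 CPM in CD (SD, n = 8 each), a log2 fold change of -0.14 ± 0.55 (SE, 95% interval -1.29 to 1.02) with an edgeR adjusted p of 0.942. It was 0.22 ± 0.47 (SE) when HFD 4 and HFD 8 were left out.

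The ligand gene Nell2 and the readout genes Dusp6, Etv5 and Etv4 were scarce in the same libraries. Nell2 had 69 counts over 16 libraries, at most 3.84 CPM in HFD and 4.34 CPM in CD, and did not pass the expression filter. Dusp6 (chromosome 10, 99263231 to 99267489, plus strand) had 2.33, 5.65 and 14.4 CPM in HFD and 2.83, 5.12 and 11.3 CPM in CD as lowest, median and highest level. HFD 7 was the highest of all and HFD 6, which held the most Ros1, was the lowest. Its counts ran from 9 to 40 per library. The log2 fold change was 0.04 ± 0.41 (SE, 95% interval -0.83 to 0.91), with an edgeR adjusted p of 0.981. Leaving out HFD 4 and HFD 8 gave -0.03 ± 0.46 (SE) for Dusp6.

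Etv5 (chromosome 16, 22381309 to 22439719, minus strand), an ETS factor also known from spermatogonia and Sertoli cells, had 1.37, 3.78 and 14.9 CPM in HFD against 3.32, 5.20 and 12.8 CPM in CD as lowest, median and highest level. Of the HFD libraries 4 lay below every CD library, but HFD 4 was the highest of all 16, with 25 counts. The log2 fold change of -0.25 ± 0.49 (SE, 95% interval -1.28 to 0.79) had an edgeR adjusted p of 0.871, and without HFD 4 and HFD 8 it was -0.51 ± 0.46 (SE). Sertoli cell markers summed to 16.7 CPM in HFD 4, the lowest of the 16. Spermatogonial markers summed to 66.1 CPM there, against 51.1 to 290.5 CPM in the 14 libraries other than HFD 4 and HFD 8. On average Sox9 made up most of the Sertoli sum and Gfra1 most of the spermatogonial sum, so both are weak measures of those cells. In HFD 4 the meiotic sum of 3641 CPM and the stromal, endothelial and muscle sum of 1624 CPM were the highest of the 16. HFD 8 was next in both, with 2827 and 1395 CPM, but held 1.39 CPM of Etv5, from 4 counts. The source of the Etv5 reads was not tested.

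Etv4 (chromosome 11, 101769742 to 101785371, minus strand), the closest relative of Etv5 here, had reads in 3 of 16 libraries: 7 counts in HFD 6, 4 in HFD 7 and 3 in CD 6. The other 13 libraries had 0 counts, which allows up to 0.397 CPM in CD 2, the deepest, and 1.79 CPM in HFD 4, the shallowest, for counting error only. Etv4 did not pass the filter. With all genes that had a count kept in the fit, its edgeR adjusted p was 0.591, with reads in 2 of 8 HFD and 1 of 8 CD libraries. Set beside its receptor, the level per kb of Ros1 was 0.694 to 70.5 times that of Dusp6, with a median of 19.3, and 2.45 to 96.6 times that of Etv5, with a median of 18.9. The exception to Ros1 exceeding Dusp6 was HFD 8, where the epididymal list was lowest.

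Neither steroid reductase gene passed the diet test. Srd5a1 (chromosome 13, 69573449 to 69611442, minus strand) encodes the widely expressed isozyme. It had 9.07, 43.5 and 65.0 CPM in HFD against 20.1, 46.8 and 73.0 CPM in CD as lowest, median and highest level, and HFD 4 and HFD 8 were below every CD library. The log2 fold change was -0.31 ± 0.34 (SE, 95% interval -1.02 to 0.41) with an edgeR adjusted p of 0.769. Once HFD 4 and HFD 8 were left out it was -0.02 ± 0.25 (SE), and no HFD library then lay below the CD range. A same-strand transcript, Gm17108, shares 16.4% of the Srd5a1 exon bases. Gm17108 has no row in the count table, so reads from the shared bases could have been counted as Srd5a1 or set aside.

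Srd5a2 (chromosome 17, 74016955 to 74047916, minus strand) encodes the isozyme of the male reproductive tract. A same-strand transcript, CT025731.1, also without a row in the count table, shares 8.97% of the Srd5a2 exon bases, with the same doubt about those reads. Srd5a2 had 0.697, 23.8 and 69.8 CPM in HFD against 5.87, 17.9 and 109 CPM in CD as lowest, median and highest level. HFD 8 held 2 counts, while CD 2 held 825, and the ranges of the diets overlapped apart from those libraries. Means were 30.1 ± 23.2 CPM in HFD and 30.2 ± 33.4 CPM in CD (SD, n = 8 each). The log2 fold change of -0.01 ± 0.63 (SE, 95% interval -1.33 to 1.31) had an edgeR adjusted p of 0.997, and its sign changed with the scaling. Without CD 2 it was 0.67, with an edgeR adjusted p of 0.754, and without HFD 4 and HFD 8 it was 0.34 ± 0.55 (SE).

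Esr1 (chromosome 10, 4611593 to 5005614, plus strand) and Pax2 (chromosome 19, 44756045 to 44837871, plus strand) had the largest log2 fold changes in size among the 7 genes tested with all 16 libraries, and neither passed. That order did not hold without HFD 4 and HFD 8, where Etv5 at -0.51 and Srd5a2 at 0.34 exceeded both in size. With limma-voom, Etv5 at -0.72, Srd5a2 at 0.45 and Dusp6 at -0.45 exceeded both. Esr1 had 5.23, 22.9 and 37.2 CPM in HFD against 17.1, 35.6 and 45.2 CPM in CD as lowest, median and highest level. Of the CD libraries 3, CD 2, CD 3 and CD 4, lay above every HFD library, and HFD 4 and HFD 8 lay below every CD library. Means were 21.1 ± 10.3 CPM in HFD and 32.6 ± 11.3 CPM in CD (SD, n = 8 each), a log2 fold change of -0.62 ± 0.34 (SE, 95% interval -1.33 to 0.09) with an edgeR adjusted p of 0.501. Over the other 6 HFD libraries the mean was 25.9 ± 6.12 CPM (SD, n = 6), and the log2 fold change without HFD 4 and HFD 8 was -0.32 ± 0.24 (SE), with an edgeR adjusted p of 0.9997.

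Pax2 separated HFD 4 and HFD 8 from the rest. It had 8.72, 134 and 168 CPM in HFD against 123, 163 and 234 CPM in CD as lowest, median and highest level. HFD 8 and HFD 4 held 8.72 and 18.4 CPM, while no other library fell under 105 CPM. Means were 110 ± 62.8 CPM in HFD and 163.5 ± 39.1 CPM in CD (SD, n = 8 each), a log2 fold change of -0.57 ± 0.43 (SE, 95% interval -1.47 to 0.33) with an edgeR adjusted p of 0.655. The other 6 HFD libraries averaged 142 ± 23.7 CPM (SD, n = 6), and the log2 fold change without HFD 4 and HFD 8 was -0.19 ± 0.16 (SE, edgeR adjusted p = 0.9997). In the same comparison 4 CD libraries lay above every HFD library.

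**Figure D2:**
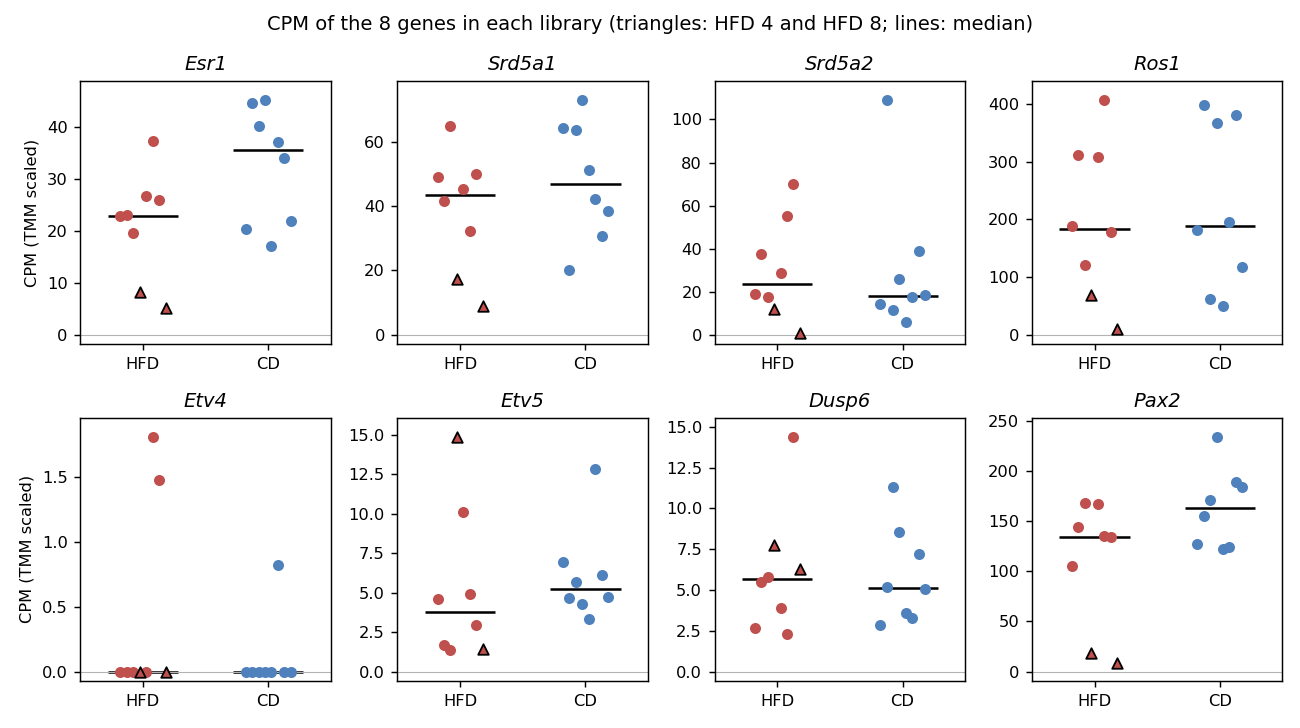
CPM (TMM scaled, linear axes from 0) of each gene in every library, HFD left and CD right, with a line at the median of each diet and triangles for HFD 4 and HFD 8. Those libraries are lowest for Esr1, Srd5a1 and Pax2, while HFD 4 is highest for Etv5 at 14.9 CPM.

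Over all genes the diets gave no call. edgeR's quasi-likelihood test called 0 of 13149 genes (0%), and 0 of the 7 tested regulators. At an unadjusted p under 0.05 it had 1482 genes, or 11.3%, with 1338 above 0 and 144 below 0 in log2 fold change, and again 0 of the 7. That number rests on HFD 4 and HFD 8: it was 516 without HFD 4, 689 without HFD 8 and 292 of 13448 without both, with 132 above 0 and 160 below 0. DESeq2 called 1 gene (0.00761%), which was Apoh and is named only for completeness, while weighted limma-voom called 0 and had 488 at an unadjusted p under 0.05. The 95% intervals of the 7 genes reached down to -1.47, for Pax2, and up to 1.31, for Srd5a2, on the log2 scale, and values inside them could not be resolved with this spread between mice.

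**Figure D3:**
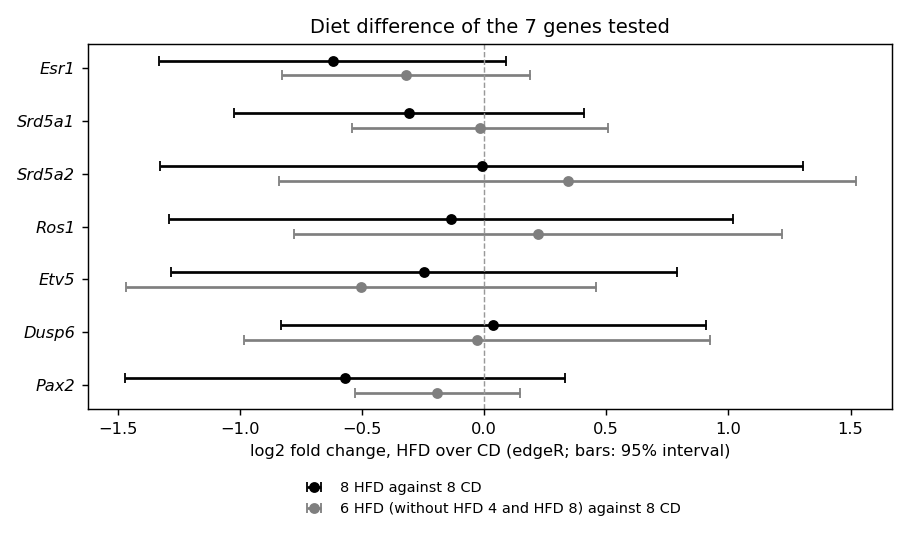
Log2 fold change of HFD over CD from edgeR with its 95% interval for the 7 genes tested, in black with all libraries and in grey without HFD 4 and HFD 8. Each interval includes 0, and the values for Esr1, Srd5a1 and Pax2 lie nearer to 0 without those libraries, at -0.32, -0.02 and -0.19.

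In HFD 4 and HFD 8 some regulators were far below the median of the other libraries and others were not. In HFD 4 and HFD 8, Pax2 stood 8.10-fold and 17.2-fold below the median of the other 14 libraries, and the epididymal principal cell list stood 4.16-fold and 6.72-fold below it. Srd5a2 was 1.89-fold lower in HFD 4, at 11.9 CPM and so within the 5.87 to 109 CPM of the other 14. In HFD 8, where it had 2 counts, Srd5a2 was 32.2-fold lower. Ros1 was 2.78-fold lower in HFD 4, at 69.0 CPM and so within the 49.3 to 407 CPM of the other 14, and 17.8-fold lower in HFD 8. Srd5a1 was lower by 2.73-fold and 5.20-fold and Esr1 by 3.16-fold and 5.03-fold in HFD 4 and HFD 8. Dusp6, at 7.74 and 6.28 CPM in HFD 4 and HFD 8, stayed within the 2.33 to 14.4 CPM of the other 14 libraries. Etv5 stood above the other 14 in HFD 4, at 14.9 CPM against their median of 4.68 CPM. In HFD 8 it was 3.36-fold below that median, at 1.39 CPM and so within their 1.37 to 12.8 CPM.

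Whether the regulators varied together was examined over those 14 libraries, because HFD 4 and HFD 8 form a separate cluster. Of 42 relations, 21 between pairs of genes and 21 to list sums, 1 passed Benjamini-Hochberg adjustment. Srd5a2 was high where Ros1 was high (Pearson r = 0.79, permutation p = 0.00076, adjusted p = 0.0319; Spearman rho = 0.77, permutation p = 0.002, adjusted p = 0.084; n = 14). Within HFD r was 0.49 over 6 libraries and within CD 0.85 over 8. Without CD 2 and CD 5, the libraries farthest from the median of Srd5a2, r was 0.66 (permutation p = 0.0194, adjusted p = 0.314; rho = 0.64; n = 12), so passing the adjusted threshold rests on those samples. In CD 2 Srd5a2 stood at 109 CPM beside 398 CPM of Ros1, and in CD 5 at 5.87 beside 49.3 CPM. Over the same 14 libraries Srd5a2 had r = 0.70 with the epididymal principal cell sum and -0.69 with the late spermatid sum (adjusted permutation p = 0.0902 each), and r = 0.55 with the initial segment and caput sum (adjusted permutation p = 0.204). Ros1 had r = 0.49 and -0.56 with the epididymal and spermatid sums (adjusted permutation p = 0.2145 and 0.204). With each regulator taken relative to the epididymal sum, Srd5a2 and Ros1 had r = 0.70 (permutation p = 0.00541, adjusted p = 0.0783, rho = 0.61, adjusted permutation p = 0.161; n = 14), which did not pass.

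Srd5a1 ran the other way from its sister gene, below the threshold (r = -0.65, permutation p = 0.0113, adjusted p = 0.118; rho = -0.63, adjusted permutation p = 0.0883; n = 14). CD 2, with the most Srd5a2, had the least Srd5a1 of the 14, at 20.1 CPM. Within diets r was -0.60 in HFD and -0.73 in CD. Relative to the epididymal sum, this was the relation that passed (r = -0.77, permutation p = 0.00036, adjusted p = 0.0151; rho = -0.79, adjusted permutation p = 0.0483; n = 14), and dividing both genes by 1 shared sum can itself change r. Without CD 2 and CD 7, the farthest on that scale, r was -0.74. Per kb, the ratio of Srd5a1 to Srd5a2 ranged from 0.322 to 7.17 in HFD and from 0.102 to 4.82 in CD. The level of Srd5a1 was higher than that of Srd5a2 in 3 of 8 HFD and 6 of 8 CD libraries.

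**Figure D4:**
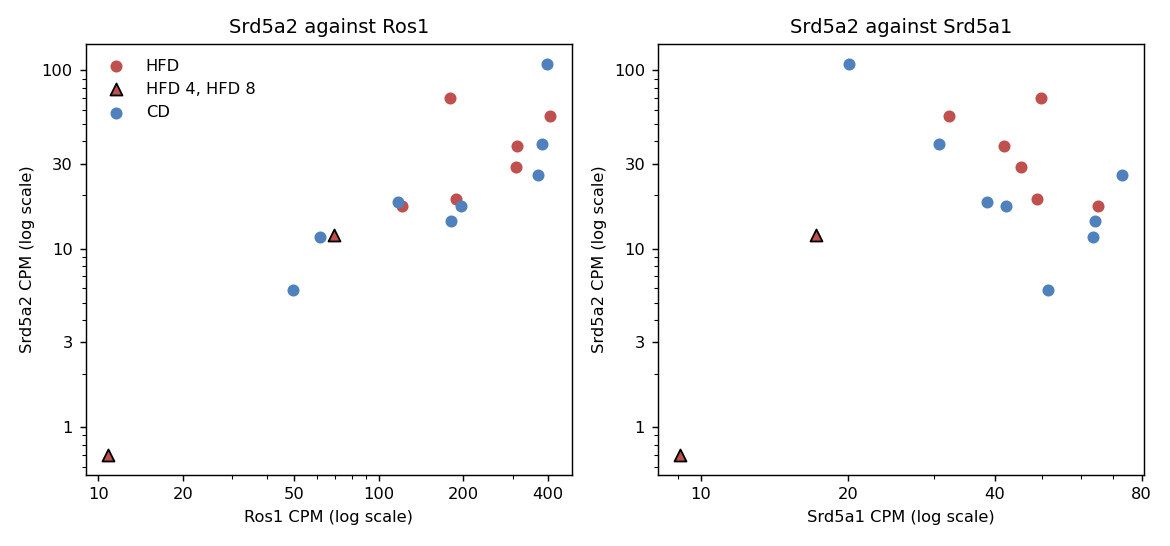
CPM of Srd5a2 against CPM of Ros1 (left) and of Srd5a1 (right) on log axes, with 1 point per library and triangles for HFD 4 and HFD 8. Without the triangles Srd5a2 has r = 0.79 with Ros1 and r = -0.65 with Srd5a1 over 14 libraries.

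Relations to a sum of region markers pointed in opposite directions for Ros1 and Srd5a1 without passing. Initial segment and caput genes, 17 genes of the first parts of the epididymis, summed to between 1691 and 10119 CPM in the 14 libraries. Gpx5 and Spint4 averaged 2376 and 1510 CPM in HFD and 573 and 1702 CPM in CD, of mean sums of 4797 and 3063 CPM. Some other listed genes were scarce, with Lcn9 and Lcn10 at 0 in 10 and 11 libraries. The sum thus mostly follows Gpx5 and Spint4 and need not describe the region. Ros1 had r = 0.60 with this sum (permutation p = 0.0233, adjusted p = 0.163, rho = 0.65, adjusted permutation p = 0.0883) and Srd5a1 r = -0.61 (permutation p = 0.0205, adjusted p = 0.163, rho = -0.73, adjusted permutation p = 0.0853). Gpx5, a caput marker that separates these preparations sharply, ran from 1.42 to 7826 CPM over the 14 libraries. At its low end, CD 3 with 1.42 CPM of Gpx5 held 61.8 CPM of Ros1, CD 8 with 3.72 CPM held 117 CPM and HFD 1 with 7.87 CPM held 188 CPM. At its high end, HFD 5 with 7826 CPM of Gpx5 held 308 CPM of Ros1. For Dusp6 and Pax2, r was 0.54 (adjusted permutation p = 0.204, rho = 0.63, n = 14), and 0.86 without HFD 7 and CD 3 (adjusted permutation p = 0.0181). Ros1 had r = 0.17 with Etv5 and -0.13 with Dusp6 over the 14 libraries, with adjusted permutation p of 0.689 and 0.753.

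Genes with the most similar profile over the 16 libraries were found by Spearman's rho of log2 CPM, as a description. These profiles share library depth and the tissue makeup of each preparation. Closest to Ros1 were Alpl, the gene of tissue-nonspecific alkaline phosphatase, Gm11651 and Pemt, a phospholipid methyltransferase gene, with rho of 0.97 each. Without HFD 4 and HFD 8 these values were 0.97, 0.98 and 0.98. Closest to Pax2 was Usp6nl at 0.93, followed by Gm10865 at 0.90 and Ptch1, the Hedgehog receptor gene, at 0.89. Esr1 was most like Ganab (0.91), Patl1 (0.90) and AU040320 (0.89). Srd5a1 was most like Ubash3b, Siae and Gstm2 (0.89 each), and Srd5a2 most like Atp5g1, Krtcap2 and Acad8 (0.91 each). The scarce genes had weaker matches: rho reached 0.78 for Etv5 with Nol3, 0.76 with Pnn and 0.75 with Prpf31, and 0.78 for Dusp6 with Mknk2, a kinase gene downstream of ERK, 0.77 with Usp30 and 0.73 with Cluh. Leaving out HFD 4 and HFD 8 lowered rho for the other regulators, by amounts that differed between partners. It was 0.83 for Pax2 with Ptch1, 0.86 for Esr1 with Ganab and 0.84 for Srd5a1 with Ubash3b. For Etv5 with Pnn it was 0.67. Srd5a2 had 0.88 with Krtcap2 but still 0.90 with Atp5g1. Dusp6 had 0.71 with Cluh but still 0.77 with Usp30 and with Mknk2.

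Other genes of the pathway were present at moderate levels and did not differ detectably by diet. Of 32 listed lumicrine ligands, ROS1 partners and ERK cascade genes, 27 were tested and 0 passed, with 7 log2 fold changes above 0, 20 below it and a median of -0.13, against 50.4% negative and a median of -0.0042 over all 13149 genes. Among its abundant genes were Braf, a kinase upstream of ERK, with 209 ± 34.8 CPM in HFD and 229.5 ± 48.4 CPM in CD, and Nras, a small GTPase gene of the same cascade, with 152 ± 25.5 and 156 ± 39.1 CPM (SD, n = 8 each). edgeR adjusted p were 0.793 and 0.964. Without HFD 4 and HFD 8 the list had 12 positive and 15 negative values and a median of -0.0090.

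ETS factors and ERK feedback or target genes, 26 in all, had 17 tested genes and 0 calls, with 5 positive and 12 negative values and a median of -0.08. Ehf and Elf3, ETS factors of epithelia, and Elk4, an ERK-regulated ETS factor, were the most abundant. Ehf had 279 ± 146 CPM in HFD and 365 ± 81.7 CPM in CD, Elk4 60.3 ± 32.04 and 64.9 ± 10.1 CPM, and Elf3 29.9 ± 14.2 and 37.9 ± 10.6 CPM (SD, n = 8 each). edgeR adjusted p were 0.710, 0.922 and 0.747. Without HFD 4 and HFD 8 the median was 0.04. Ehf held 66.7 and 65.5 CPM in HFD 4 and HFD 8, and at least 232 CPM in each of the other 14 libraries.

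Steroid receptors, their co-regulators and steroid enzymes, 36 genes, had 23 tested genes and 0 calls, with 8 positive and 15 negative values and a median of -0.11, or -0.03 without HFD 4 and HFD 8. The chaperone gene Hsp90ab1 had 1124 ± 436 CPM in HFD and 1518 ± 177 CPM in CD, the receptor co-chaperone Fkbp4 354 ± 84.5 and 350.1 ± 44.4 CPM, and the coactivator Ncoa2 318 ± 92.98 and 356 ± 37.7 CPM (SD, n = 8 each). edgeR adjusted p were 0.537, 0.979 and 0.780. Hsp90ab1 had 479 and 486 CPM in HFD 4 and HFD 8 and at least 1054 CPM elsewhere.

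Of 24 Wolffian duct and renal patterning genes, 12 were tested and 0 passed. All 12 had a log2 fold change under 0, and their median was -0.30, with a jackknife SE of 0.21 over libraries. With no filter on low counts, 8 of 23 were above 0 and 15 below. Pax8, the paralog of Pax2, had 279 ± 133 CPM in HFD and 349 ± 53.0 CPM in CD, Emx2 178 ± 63.8 and 201 ± 47.8 CPM, and Tfcp2l1 96.0 ± 32.7 and 108 ± 25.8 CPM (SD, n = 8 each), with edgeR adjusted p of 0.747, 0.800 and 0.826. HFD 4 and HFD 8 held 477 and 432 CPM of the whole list, against 929 to 1321 CPM in the other 14 libraries. Without those libraries 10 of 14 tested genes were negative, beside 50.8% of all genes, and the median was -0.08.

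Initial segment and caput genes were the list with a positive median, 0.42 over 10 tested genes, and 0 passed. The protease inhibitor Spint4 had 1510.0 ± 1285 CPM in HFD and 1702 ± 911 CPM in CD, Gpx5, a secreted peroxidase, 2376 ± 3108 and 573 ± 767 CPM, and the beta-defensin Defb21 312 ± 248 and 420 ± 397 CPM (SD, n = 8 each), with edgeR adjusted p of 0.915, 0.621 and 0.848. Of these 10 genes 2 had an unadjusted edgeR p under 0.05, beside 11.3% of all genes tested. Without HFD 8 it was 0 of 10, beside 689 of 13268 genes, and without HFD 4 2 of 11, beside 516 of 13295. Without both libraries it was 1 of 12, beside 292 of 13448. The 2 of 10 with all libraries were Cst8 and Defb20, named after their values were seen, and both had an edgeR adjusted p of 0.434. Leaving out both HFD 4 and HFD 8 gave a median of 0.44 over 12 tested genes. Leaving out single libraries moved the median between 0.06 and 1.20.

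Markers of the other cells given here, which could carry these transcripts, summed to less than those of principal cells. The late spermatid list was the exception, exceeding the principal cell list in HFD 4 and HFD 8. The lists differ in size and in level per gene, so their sums do not rank cell types. Clear cell genes summed to 104.6 to 320 CPM in HFD and 187 to 333 CPM in CD, and basal cell genes to 73.6 to 126 and 97.7 to 148 CPM. Leukocyte genes summed to 405 to 1737 CPM in HFD and 302 to 1111 CPM in CD, and stromal, endothelial and muscle genes to 476 to 1624 and 388 to 1145 CPM. Sertoli cell genes reached at most 58.8 CPM in HFD and 71.3 CPM in CD, and Leydig cell genes at most 129 CPM in each diet. Most of the Leydig sum was Cyp17a1, with means of 60.6 CPM in HFD and 59.6 CPM in CD. Insl3 and Lhcgr of that list were at 0 in 15 libraries each, and Amh and Fshr of the Sertoli list at 0 in 16. These sums are thus no measure of Leydig or Sertoli cell RNA. HFD 4 held 3641 CPM and HFD 8 2827 CPM of meiotic genes, and no other library more than 894 CPM. Their part in the values of the 8 regulators was not tested.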

How the data were processed

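The authors deposited raw counts for each gene symbol and library. The 5 summary rows entered neither the library sizes nor any test. Per the submitters' processing notes the tools were HTSeq 1.0.0, STAR and DESeq2 1.0.19, with mm10 as build. The annotation used for counting and its strand setting were not given in the sources used here. Between 8.02% and 20.1% of reads fell in genes and 58.0% to 76.1% in no annotated feature. HFD 4 and HFD 8 had the lowest shares in genes, 8.02% and 9.16%, and the highest in no feature, 76.1% and 75.0%. Whether this bears on their regulator values was not tested. Within a diet, 56 pairs of libraries had a chi-square per degree of freedom between 12.7 and 172, and none was a copy.

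Diets were compared in edgeR 4.0.16 (R 4.3.3) with TMM factors, the default expression filter, the robust quasi-likelihood F-test and Benjamini-Hochberg adjustment over 13149 genes at 0.05, and the step was tested on simulated data. SE is the log2 fold change over the root of F. Alternatives used DESeq2 1.42.0 and limma 3.58.1. Correlations used log2 CPM with a prior count of 2 and 100000 permutations, two-sided. Positions and exon lengths are from GENCODE M21 (GRCm38, the assembly of mm10), and upstream windows from RefSeq. The genes and lists were chosen with earlier results of these data known. By rule, named genes are the 8 regulators, Nell2, the 3 most abundant tested genes of each list and the 3 genes most like each regulator. Apoh, Cst8, Defb20, Lcn9, Lcn10 and single cell type markers such as Sox9, Gfra1 and Cyp17a1 were named outside this rule, to describe a call or a list. A gene that this rule names is not reported here. Of the 8 pairs of libraries that share a title number, 4 had correlated deviations over 0.1, so the numbers were not taken to pair the samples and the comparison has no block.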

Additional observations from a re-analysis of the deposited data

Results flagged for a closer look

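Single libraries stood far from the others of their diet in 4 of 16 groups of 8. About 1 in 20 would be flagged by chance if CPM were normally distributed. The CPM were not transformed and all 4 flags were high values, so no excess over chance is read from them. The rate of 1 in 20 does not apply to Etv4 in any case, whose single CD library with reads is flagged by construction. Srd5a2 had 109 CPM in CD 2, and the next highest CD library had 38.8 CPM. Etv5 had 12.8 CPM in CD 6, with 6.94 CPM next. Etv4 had 0.818 CPM in CD 6, from 3 counts, and 0 in the other CD libraries. Dusp6 had 14.4 CPM in HFD 7, with 7.74 CPM next.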

How the results depend on the processing

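The count of genes past the threshold was 0 under the alternatives run except DESeq2, which called 1, Apoh (adjusted p = 0.0138, against 0.434 with edgeR); leaving out single libraries gave 0 to 0. With the title number as a replicate block the count was also 0, and same-numbered libraries had correlations of deviations from -0.40 to 0.61, with 4 of 8 over 0.1. Esr1, Srd5a1, Etv5 and Pax2 stayed negative in 25 of 25 settings, with Esr1 from -0.79 to -0.32 and Pax2 from -0.83 to -0.19. Srd5a1 ran from -0.445 to -0.017 and Etv5 from -0.72 to -0.000271, so the sign of these genes came close to 0. None of the 7 genes passed in any setting, with adjusted p from 0.377 to 0.9997. Srd5a2 turned positive with RLE size factors (0.013), the epididymal covariate (0.46), the replicate block (0.047), without HFD 4 and HFD 8 (0.34), with DESeq2 (0.016) and with limma-voom (0.45), and ranged from -0.31 to 0.67 when single libraries were left out. Ros1 turned positive with the epididymal covariate (0.17), without HFD 4 and HFD 8 (0.22) and with limma-voom (0.32), and ranged from -0.37 to 0.048. Dusp6 turned negative with the block (-0.013), without HFD 4 and HFD 8 (-0.029) and with limma-voom (-0.45), and ranged from -0.28 to 0.24. The cause was not tested. The median of the Wolffian list was -0.08 without HFD 4 and HFD 8, against -0.30 with them. Of 42 relations, 1 passed over 14 libraries (Srd5a2 with Ros1), 1 with a prior count of 0.5, 1 per epididymal CPM (Srd5a1 with Srd5a2), 1 without the libraries farthest on the x axis (Dusp6 with Pax2), and 16 over all 16 libraries. At 9 to 40 counts for Dusp6 and 4 to 47 for Etv5, depth limits both genes.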
